A study of Mus musculus with 4 samples.

Results

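The 10 genes described here belong to the circadian clock, the transcriptional oscillator that nearly every cell of the body carries. They were taken by symbol from a deposited table of 16218 genes, and all 10 were listed there and passed the filter on low counts. They form 2 sets of 5: Arntl, Npas2, Clock, Cry1 and Nfil3 (the Arntl arm), and Dbp, Nr1d1, Nr1d2, Per2 and Per3 (the Dbp arm). The genes were chosen because the arms differed in opposite directions between the treatment groups in these same libraries. The group differences of these 10 genes are therefore a description, and no test of them is given.

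The study sequenced poly(A)-selected RNA of whole thyroids from mice of the NOD.H-2h4 strain, which readily develops autoimmune thyroiditis. There were 2 libraries from mice injected with isotype control IgG and 2 from mice injected with a monoclonal antibody against PD-L1, the ligand of the T cell checkpoint receptor PD-1. The IgG libraries are called controls below and the anti-PD-L1 libraries treated. Both groups were injected 3 times a week over 2 weeks before the thyroid was taken, and the series was made to find thyroid genes that differ when PD-L1 is blocked. The labels also carry a batch field with an antibody clone string that is different in each library (LTF2 and LTF3 for IgG, 10F.9G2 and 10F.9G3 for anti-PD-L1), so it cannot be told apart from the library. The strings of a group differ only in the last digit, and whether they name separate clones is not stated. The age and sex of the mice and the hour at which each thyroid was taken are not stated in the sources read.

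In the mammalian clock, ARNTL (also called BMAL1) pairs with CLOCK or its paralog NPAS2 and activates genes through E-box elements. Among those genes are the Period and Cryptochrome genes, whose proteins return to the nucleus and inhibit the activating pair. They also include Nr1d1 and Nr1d2, which encode the repressors REV-ERB alpha and REV-ERB beta. These repressors bind ROR/REV-ERB elements (RREs) in Arntl and other genes and hold them down, while ROR proteins activate through the same elements. A further loop runs through D-boxes, which DBP and its relatives activate and NFIL3 represses. In most tissues Arntl and Npas2 therefore peak at roughly the opposite time of day from Dbp and Nr1d1, with the Period genes later than Dbp.

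RefSeq promoter windows on GRCm38.p6, from 250 bases before to 50 bases after an annotated start, were found for 9 of the 10 genes (12 windows). They were searched on both strands for the E-box CACGTG, the related E-prime-box CACGTT, the D-box TTATGTAA and the RRE consensus. The windows of 4 genes held a match, and these 4 are printed to show the matched letters. Capitals mark the matched motifs, and each window is written 5′ to 3′ on the gene's own strand. The Arntl window is the downstream one of an overlapping pair, the other of which held no match. Positions are counted from the start site as 0.
Arntl, chr7:113207261-113207560, plus strand: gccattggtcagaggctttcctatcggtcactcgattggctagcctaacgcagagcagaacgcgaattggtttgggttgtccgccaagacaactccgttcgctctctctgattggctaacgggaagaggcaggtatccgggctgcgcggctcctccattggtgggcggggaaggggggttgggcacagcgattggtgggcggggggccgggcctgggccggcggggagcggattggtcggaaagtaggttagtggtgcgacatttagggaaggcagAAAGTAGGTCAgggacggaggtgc
Cry1, chr10:85185005-85185304, minus strand: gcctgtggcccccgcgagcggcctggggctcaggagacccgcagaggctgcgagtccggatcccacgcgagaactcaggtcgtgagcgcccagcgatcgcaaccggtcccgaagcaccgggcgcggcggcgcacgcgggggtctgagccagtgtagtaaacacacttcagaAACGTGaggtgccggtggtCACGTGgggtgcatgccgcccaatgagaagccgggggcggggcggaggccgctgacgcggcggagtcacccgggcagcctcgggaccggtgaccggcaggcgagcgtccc
Nr1d1, chr11:98775328-98775627, minus strand: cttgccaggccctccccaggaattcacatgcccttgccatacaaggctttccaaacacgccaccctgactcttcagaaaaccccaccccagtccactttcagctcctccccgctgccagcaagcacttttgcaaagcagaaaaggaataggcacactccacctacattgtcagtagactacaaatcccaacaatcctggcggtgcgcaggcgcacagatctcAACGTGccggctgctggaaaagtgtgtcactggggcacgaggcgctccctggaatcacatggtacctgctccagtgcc
Per3, chr4:151044616-151044915, minus strand: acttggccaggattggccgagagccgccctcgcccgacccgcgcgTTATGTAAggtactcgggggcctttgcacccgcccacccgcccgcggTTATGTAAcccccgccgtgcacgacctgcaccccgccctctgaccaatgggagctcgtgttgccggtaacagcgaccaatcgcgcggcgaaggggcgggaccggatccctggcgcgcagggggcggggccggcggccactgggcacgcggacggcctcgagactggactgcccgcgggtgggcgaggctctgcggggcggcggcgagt

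The Arntl window held an RRE, AAAGTAGGTCA, at 26 to 36 bases after the start, an element that 0.384% of all 32851 promoter windows of the same length hold. The Cry1 window held an E-box at −60 to −55 and, on the reverse strand, an E-prime-box at −79 to −74. The Nr1d1 window held an E-prime-box on the reverse strand at −28 to −23. The E-box is present in 7.15% of all windows and the E-prime-box in 4.68%. The Per3 window held the D-box at −205 to −198 and again at −158 to −151, against 0.938% of all windows with at least 1 D-box. The motifs do not overlap each other in these windows. A match describes letters only. Npas2, Clock, Nfil3, Dbp and Nr1d2 had none of these exact motifs in their windows.

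Library totals ran from 75591923 to 79663374.5 counts. The tissue carried its defining RNA in all 4 libraries. Tg, which encodes thyroglobulin, took 14.6% to 16.9% of counts in 3 libraries and 4.34% in treated replicate 1. That library also stood apart in Xist, the RNA of the inactive X chromosome (1.40 CPM, the count per 1000000 after TMM scaling, against 67.7 to 72.7 CPM), and in the Y-linked Ddx3y (62.6 CPM versus 0.350 to 0.790 CPM). Its effect is therefore given beside the clock results. No gene in the table passed the edgeR threshold in the all-gene comparison. After Benjamini-Hochberg adjustment over 16217 genes, edgeR (quasi-likelihood test) called 0% of genes in either direction. Before adjustment edgeR had 4.96% of genes higher and 1.1% lower at p under 0.05. DESeq2, at an adjusted p under 0.05, called 2.93% of genes higher and 0.327% lower. With 2 libraries a group, an exact permutation test cannot go below p = 0.333. The titles give a mouse and a number for each library, and nothing else says that the samples are independent. P-values therefore measure only the spread between these samples, part of which may be technical. The treated libraries differed in Xist and Ddx3y, so they were not repeats of the same sample.

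Arntl, on chromosome 7 from 113207465 to 113314126 of GRCm38 (ENSMUSG00000055116), encodes the partner that both CLOCK and NPAS2 need. It had 36.0 and 31.9 CPM in the control libraries and 15.9 and 18.6 CPM in the treated libraries. Both treated libraries were below both controls, and the fitted log2 fold change was −0.97 ± 0.17 (SE, n = 2 per group), a 1.96-fold lower level. Without treated replicate 1 it was −0.87. In all, 1.79% of the tested genes had a lower log2 fold change than Arntl. In a whole-tissue sample, fewer cells of a type and less RNA per cell cannot be told apart.

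Npas2, on chromosome 1 from 39193731 to 39363236, encodes the paralog that can stand in for CLOCK. It had 24.6 and 21.3 CPM in the control libraries and 9.62 and 13.6 CPM in the treated libraries, a log2 fold change of −0.99 ± 0.23. The control libraries were again both the higher ones. Clock itself, on chromosome 5 from 76209868 to 76304792, was measured at 111 and 99.1 CPM versus 53.9 and 94.7 CPM, and the log2 fold change was −0.50 ± 0.32. Its treated replicate 2 lay just under the control libraries, and the difference rested on treated replicate 1: the log2 fold change was −0.15 without that library and −0.97 without treated replicate 2. Npas2 was present at 0.221 and 0.215 counts per Clock count in controls and at 0.178 and 0.143 in treated thyroids, a ratio that no scaling of the libraries changes.

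Cry1, on chromosome 10 from 85131700 to 85185064, encodes a strong inhibitor of the CLOCK and ARNTL pair. Its level was 23.0 and 20.7 CPM in controls and 14.1 and 9.66 CPM in treated thyroids, with a log2 fold change of −0.88 ± 0.24. The groups did not overlap, and treated replicate 2 was the lowest library. Nfil3, on chromosome 13 from 52967209 to 52981073, encodes the D-box repressor, which also acts in the development of NK cells. Nfil3 had 16.8 and 22.6 CPM in controls against 13.0 and 9.29 CPM in treated thyroids, a log2 fold change of −0.82 ± 0.27. Here the order within each group was the reverse of Arntl: control replicate 2 was above control replicate 1, and treated replicate 1 was above replicate 2. All 5 genes of the Arntl arm had both treated libraries below both controls, which 13.1% of all tested genes had. The arm was chosen on this comparison, so nothing is read from that count. The arm's median log2 fold change was −0.88, where the median over all genes was 0.00021. Without treated replicate 1 the arm's median was −0.87, with −0.76 for Npas2, −1.18 for Cry1 and −1.08 for Nfil3.

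**Figure D1:**
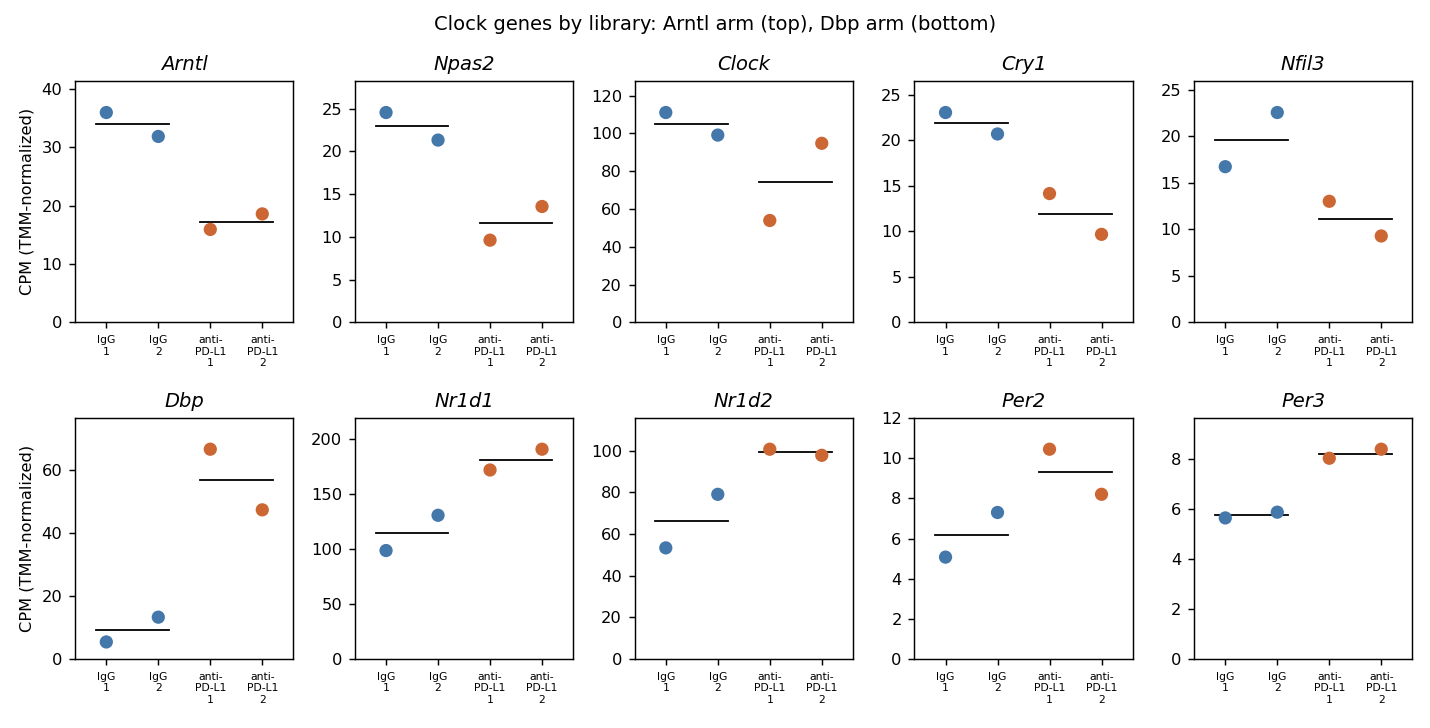
TMM-normalized CPM (vertical axes, each from 0) of the 10 clock genes in each library, with IgG in blue, anti-PD-L1 in orange and black lines at the group means (n = 2). In the top row both anti-PD-L1 points lie below both IgG points, narrowly so for Clock (94.7 against 99.1 CPM), and in the bottom row both lie above, most widely for Dbp.

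Dbp, on chromosome 7 from 45705088 to 45710203 (ENSMUSG00000059824), encodes the PAR bZIP activator of D-boxes and is one of the most strongly rhythmic transcripts of peripheral tissues. It had 5.43 and 13.3 CPM in the control libraries and 66.5 and 47.3 CPM in the treated libraries. The groups were far apart, although control replicate 2 was well above control replicate 1. The fitted log2 fold change was 2.61 ± 0.51, which is 6.08-fold, and 0.58% of the tested genes had a higher one. It was 2.34 without treated replicate 1, 2.08 without control replicate 1 and 3.39 without control replicate 2. Exons of Sphk2 on the opposite strand share 539 bases with the Dbp exons (18.0% of their length), and the strand setting of the counting is not stated in the labels or the table. Sphk2 was at 47.2 and 42.8 CPM versus 35.8 and 40.5 CPM, with a log2 fold change of −0.24 ± 0.15. The part of Sphk2 reads in the Dbp values was not tested.

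The REV-ERB genes had smaller differences. Nr1d1, on chromosome 11 from 98767932 to 98775333, was measured at 98.7 and 131 CPM in controls and 172 and 191 CPM in treated thyroids, a log2 fold change of 0.66 ± 0.23. Its exons share 263 bases (8.55%) with those of Thra, the thyroid hormone receptor alpha gene on the opposite strand, so the split of reads between them is uncertain. Thra had 72.8 and 90.1 CPM versus 68.3 and 59.8 CPM (log2 fold change −0.35 ± 0.19). Nr1d2, on chromosome 14 from 18204054 to 18239127, was measured at 53.3 and 79.0 CPM in controls and 101 and 97.8 CPM in treated thyroids, a log2 fold change of 0.58 ± 0.24. For both REV-ERB genes control replicate 1 was the lowest library and control replicate 2 the next. The Nr1d2 value was 0.31 without control replicate 1 and 0.90 without control replicate 2.

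The Period genes encode the other inhibitors of the activating pair. Per2, on chromosome 1 from 91415982 to 91459324, was measured at 5.08 and 7.30 CPM in controls and 10.4 and 8.21 CPM in treated thyroids, a log2 fold change of 0.59 ± 0.28. Control replicate 2 and treated replicate 2 were close to each other, and the log2 fold change without control replicate 1 was 0.33. Per3, on chromosome 4 from 151003652 to 151044665, was measured at 5.65 and 5.88 CPM in controls and 8.04 and 8.40 CPM in treated thyroids. Its libraries were 0.057 apart in controls and 0.063 apart in treated thyroids on the log2 scale, and its log2 fold change was 0.51 ± 0.19. All 5 genes of the Dbp arm had both treated libraries above both controls, which 16.5% of all tested genes had, and again nothing is read from the count. The median log2 fold change of the Dbp arm was 0.59. Without treated replicate 1 it was 0.56, with 0.73 for Nr1d1, 0.56 for Nr1d2, 0.41 for Per2 and 0.54 for Per3.

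Levels of different genes were ranked only per kilobase of annotated exon. The count ratios given for pairs of genes are not corrected for exon length, so they compare libraries and not genes. In the control group the order of the mean CPM per kilobase was Nr1d1 (37.3), Nr1d2 (12.2), Nfil3 (9.70), Clock (7.65), Cry1 (6.54), Npas2 (4.79), Arntl (4.51), Dbp (3.12), Per2 (1.06) and Per3 (0.600). Of the neighbours in that order, Nr1d2 and Nfil3, Npas2 and Arntl, and Arntl and Dbp had library ranges that overlapped. In the treated group Dbp, at 19.0 CPM per kilobase, stood after Nr1d1 (58.9) and beside Nr1d2 (18.3), whose range it overlapped. The other 7 genes kept the order they had in controls, from Nfil3 (5.51) to Per3 (0.856), with overlap between Nfil3 and Clock, Clock and Cry1, and Npas2 and Arntl.

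Each library was also summarised by the mean log2 CPM of the Arntl arm minus that of the Dbp arm, a difference from which any scaling factor of the library drops out, apart from the small prior count. It was 1.10 in control replicate 1, 0.48 in control replicate 2, −1.20 in treated replicate 1 and −0.96 in treated replicate 2. The group means were 0.79 ± 0.44 and −1.08 ± 0.16 (SD, n = 2). With Dbp left out of its arm the 4 values were 0.73, 0.29, −1.01 and −0.87. The choice of the genes fixes the order of the groups in both measures, so nothing is read from it. As a ratio of single genes, there were 6.62 and 2.40 Arntl counts per Dbp count in the control libraries and 0.240 and 0.393 in the treated libraries. For the opposing D-box factors, there were 0.324 and 0.588 Dbp counts per Nfil3 count in controls and 5.11 and 5.09 in treated thyroids. For the inhibitors, Cry1 per Per2 was 4.54 and 2.83 in controls and 1.35 and 1.18 in treated thyroids. The ratio of the paralogs Nr1d1 and Nr1d2, which lie in 1 arm, was 1.85 and 1.65 in controls and 1.71 and 1.95 in treated thyroids, with overlapping groups.

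**Figure D2:**
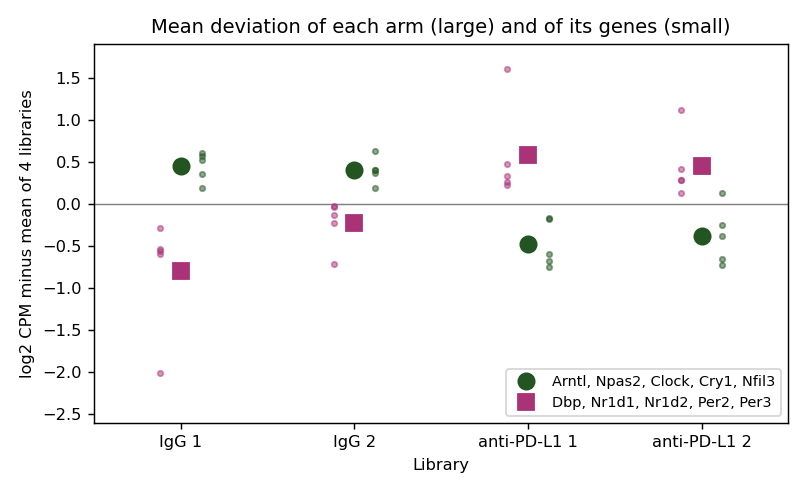
Mean deviation of each arm from the average of the 4 libraries (vertical axis, log2 CPM) in each library (horizontal axis), with circles for the Arntl arm, squares for the Dbp arm and small points for the single genes. The arms cross between the groups, and the lowest small point, at IgG 1, is Dbp.

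The choice of the genes used the difference between groups, not the difference between libraries of 1 group. Within the control group, all 5 genes of the Dbp arm were higher in replicate 2 than in replicate 1, and 4 of 5 genes of the Arntl arm were lower, Nfil3 being the exception. Over all tested genes, which were not chosen on a group difference, 50.1% were higher in control replicate 2. The largest of these differences was that of Dbp, 1.29 on the log2 scale, larger than that of 95.8% of all genes. Nr1d2, Per2 and Nr1d1 differed by 0.57, 0.52 and 0.41, and Per3 by 0.057, where the median absolute difference over all genes was 0.16. Per3 had 452 and 448 raw counts in control replicates 1 and 2, so its direction rested on the library scaling. Arntl, Npas2, Clock and Cry1 differed by −0.17, −0.20, −0.16 and −0.16, which is close to that median. The clock loops link these genes, so the counts of 5 and 4 are not counts of independent genes. Cell type marker sums, given in part below, also differed between the control libraries in both directions. Those of T and NK cells, macrophages, skeletal muscle, cartilage and mucosal gland were higher in replicate 2, as the Dbp arm was. Those of thyroid follicular, squamous, adipocyte, and parathyroid and C cell markers were lower. The part of these tissues and cells was not tested.

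Between the treated libraries the arms did not separate in this way. Arntl, Npas2 and Clock were higher in replicate 2 than in replicate 1, by 0.22, 0.49 and 0.81, while Cry1 and Nfil3 were lower, with differences of −0.55 and −0.49. In the Dbp arm Dbp, Per2 and Nr1d2 were lower in replicate 2 (−0.49, −0.35 and −0.042) and Nr1d1 and Per3 higher (0.15 and 0.063). The median absolute difference over all genes was 0.33 in this group, and 49.3% of genes were higher in replicate 2.

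The other core clock genes, 10 in all, were taken from a textbook list and tested in the all-gene comparison. Of these, 3 had both treated libraries above both controls (16.5% of all genes), and for 1 they were both below (13.1%). None passed: edgeR called 0 of 10 after adjustment (smallest adjusted p = 0.502, for Bhlhe41), and DESeq2 0 of 10. Before adjustment edgeR had 1 of 10 higher at p under 0.05 (4.96% of all genes) and 0 lower (1.1%). The list's median log2 fold change was 0.14, and it was −0.029 with the stricter count filter and −0.097 without treated replicate 1. The 3 genes with higher values were Bhlhe40, Bhlhe41 and Ciart. Bhlhe40 and Bhlhe41 encode the DEC repressors, which compete for E-boxes, and Ciart encodes CHRONO, a repressor of the activating pair. Bhlhe41 had 2.50 and 2.72 CPM in controls and 5.53 and 4.34 CPM in treated thyroids (log2 fold change 0.92 ± 0.24). Bhlhe40 had 52.5 and 67.3 CPM versus 101 and 76.4 CPM (0.56 ± 0.23, edgeR adjusted p = 0.899).

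Ciart was low throughout, with 0.313 and 0.223 CPM in controls, 1.78 CPM in treated replicate 1 and 0.395 CPM in replicate 2. Its log2 fold change of 2.01 ± 0.84 (edgeR adjusted p = 0.924) rested on treated replicate 1, without which it was 0.56. The gene with lower values was Arntl2, a paralog of Arntl, at 4.15 and 3.39 CPM versus 2.79 and 2.60 CPM (−0.48 ± 0.24, edgeR adjusted p = 1.00). Of the PAR bZIP relatives of Dbp, Tef had 66.7 and 87.8 CPM versus 132 and 84.0 CPM, and Hlf 17.1 and 9.43 CPM versus 14.6 and 8.57 CPM. The groups overlapped for both, unlike for Dbp. Rora and Rorb, whose proteins activate through the RRE, had log2 fold changes of −0.13 ± 0.16 and −0.029 ± 0.23, with overlapping groups.

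**Figure D3:**
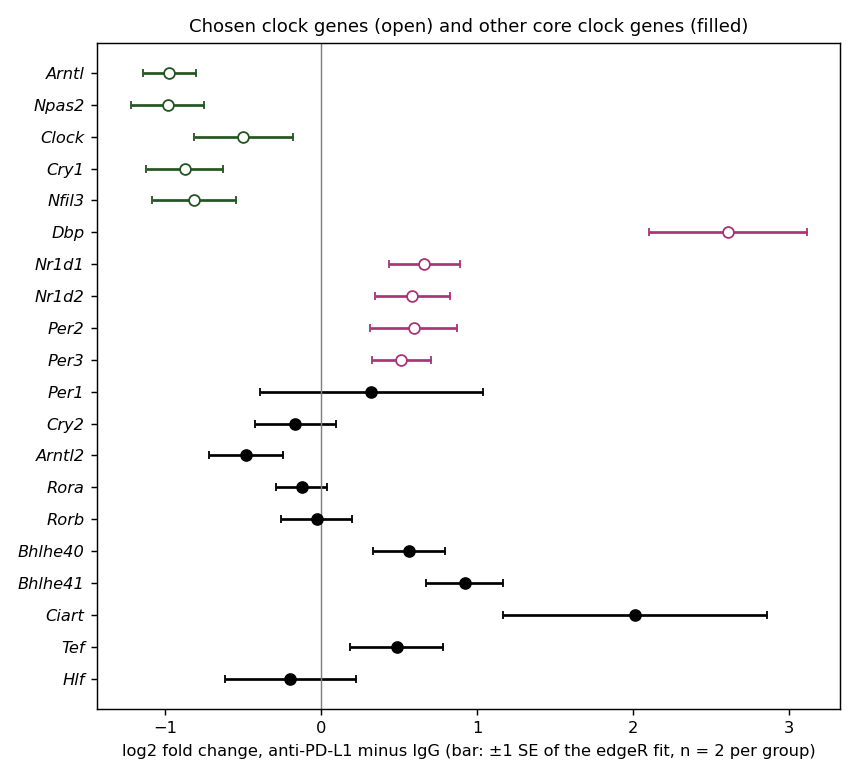
Log2 fold change, anti-PD-L1 minus IgG (horizontal axis), of the 10 chosen genes (open points, a description) and of the 10 other core clock genes (filled points), with bars of 1 standard error of the edgeR fit (n = 2 per group). The filled points lie on both sides of 0, and Ciart and Per1 have the widest bars, 0.84 and 0.71.

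Per1 and Cry2, paralogs of Per2 and Cry1, did not follow the groups. Per1, which also responds quickly to glucocorticoids and to cAMP signalling, had 10.0 CPM in control replicate 1, 29.9 CPM in control replicate 2, 36.2 CPM in treated replicate 1 and 13.6 CPM in treated replicate 2. The spread within each group was larger than the difference between the groups (log2 fold change 0.32 ± 0.71, edgeR adjusted p = 1.00). Its differences within the groups, 1.57 and −1.41 on the log2 scale, were larger than those of 97.1% and 94.9% of genes. Cry2 had 28.5 and 44.3 CPM versus 34.6 and 30.2 CPM (−0.17 ± 0.26). The same order of libraries as in Per1 was seen in the steroid-responsive gene Cebpd, with 15.7 and 36.5 CPM in controls and 41.7 and 18.0 CPM in treated thyroids. Nr4a1, an immediate-early gene, had 27.5 and 69.8 CPM versus 69.2 and 31.3 CPM. Cebpd and Nr4a1 were picked out with their values in view. Of the other genes in the glucocorticoid-responsive list described below, Tsc22d3 narrowly had the order of Per1. Errfi1 had it too, over a small range (47.4 and 52.3 CPM in controls, 53.8 and 50.7 CPM in treated thyroids). In contrast, Pdk4 and Angptl4 had their lowest values in control replicate 2, and Fkbp5, Mt1 and Mt2 did not have that order either. The summed CPM of 10 mucosal gland markers, a tissue next to the thyroid, also had its highest values in control replicate 2 and treated replicate 1. It was 2476 and 14307 in controls and 25220 and 5630 in treated thyroids. That of 12 skeletal muscle markers did so too, at 37430 and 50640 in controls and 66087 and 22433 in treated thyroids. The other marker lists did not. Within each group, the macrophage sum was also higher in control replicate 2 and in treated replicate 1. It was 194 and 251 CPM in controls and 839 and 791 CPM in treated thyroids. The part of these tissues and cells in the Per1 values was not tested.

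**Figure D4:**
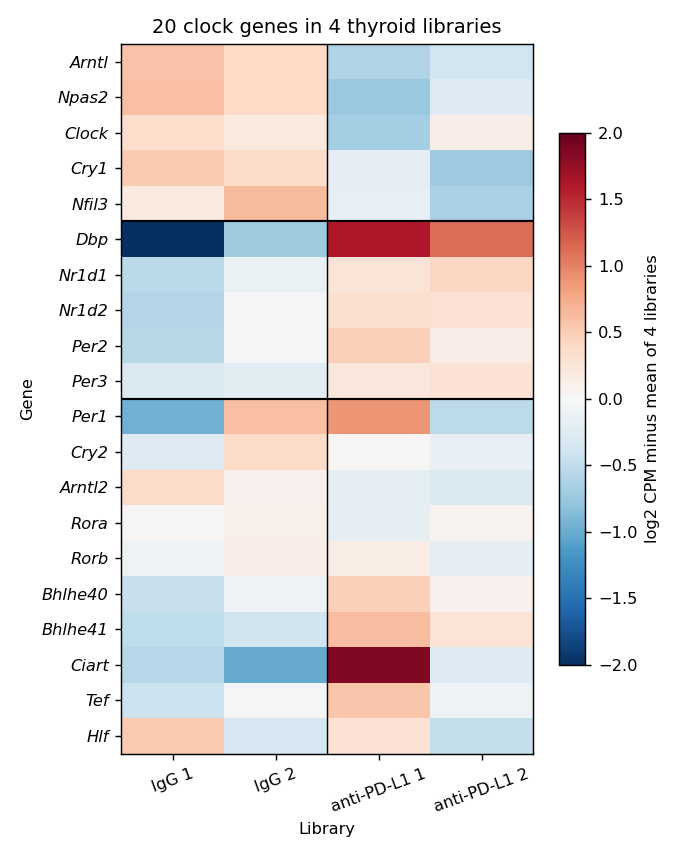
Deviation of log2 CPM from the mean of the 4 libraries (colour) for 20 clock genes (rows) in each library (columns), with the Arntl arm on top, the Dbp arm in the middle and the other core clock genes at the bottom. The top blocks change colour at the line between the groups, except Clock, which is above its mean in anti-PD-L1 2 (0.13), while Per1 is low in the outer libraries (10.0 and 13.6 CPM) and high in the inner ones.

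Genes of the enzymes that set the stability of clock proteins had small fitted differences. All 18 genes of the list of clock kinases, phosphatases and ubiquitin ligase subunits had an absolute log2 fold change under 0.3 (median −0.028), as had 74% of all genes. Of the 18, 0 had both treated libraries above both controls (16.5% of all genes), and 1, the casein kinase gene Csnk1a1, had both below (13.1%). edgeR called 0 of them, with 0 before adjustment at p under 0.05, and DESeq2 called 0. The smallest p belonged to Gsk3b, a kinase that phosphorylates several clock proteins, at 26.3 and 25.6 CPM versus 15.6 and 27.3 CPM. Csnk2a2, a catalytic subunit of casein kinase 2, had a log2 fold change of −0.16 ± 0.22, Ppp1cc, a catalytic subunit of protein phosphatase 1, 0.17 ± 0.21 and Prkaa2, a catalytic subunit of AMPK, −0.21 ± 0.27. Among 16 coregulators the median was 0.0023, and 15 had an absolute log2 fold change under 0.3 (74% of all genes). The exception was Timeless, which acts mainly in DNA replication in mammals, at 4.85 and 4.62 CPM versus 5.17 and 8.57 CPM (0.54 ± 0.31), a value that was 0.11 without treated replicate 2 and 0.85 without treated replicate 1. Of these 16, Timeless, Sfpq and Wdr5 had both treated libraries above both controls and 0 had both below, where 16.5% and 13.1% of all genes did, so the 3 are near that share. edgeR and DESeq2 called 0, with 0 at an unadjusted p under 0.05. Cipc, an inhibitor of CLOCK, had a log2 fold change of −0.23 ± 0.31, Ppargc1a, a coactivator of the ROR proteins, −0.28 ± 0.35 and Sfpq, a partner of the PER complex, 0.12 ± 0.16.

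Of 14 genes known as rhythmic outputs, 4 had both treated libraries above both controls (16.5% of all genes) and 2 had both below (13.1%), Nampt and Klf10 being the ones not described next. edgeR called 0, with 3 higher (4.96% of all genes) and 0 lower (1.1%) before adjustment at p under 0.05, and DESeq2 called 0. The median log2 fold change was 0.17. Rgs16, a regulator of G protein signalling, had 7.19 and 9.65 CPM in controls and 14.3 and 18.4 CPM in treated thyroids (0.95 ± 0.25, edgeR adjusted p = 0.481). Alas1, the gene of the entry enzyme of haem synthesis, haem being the ligand of the REV-ERB proteins, had 137 and 157 CPM versus 218 and 242 CPM (0.64 ± 0.20, edgeR adjusted p = 0.620). Tspan4, a tetraspanin gene, had 7.00 and 8.88 CPM versus 13.7 and 11.4 CPM (0.66 ± 0.22, edgeR adjusted p = 0.707). Cdkn1a, the gene of the cell cycle inhibitor p21, had 126 and 97.4 CPM versus 89.2 and 69.5 CPM (−0.50 ± 0.23, edgeR adjusted p = 1.00).

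Signals that can shift peripheral clocks were described by 3 further lists. Of 17 glucocorticoid-responsive genes, 3 of which are also in the output list, 5 had both treated libraries above both controls (16.5% of all genes) and 1, Cdkn1a, had both below (13.1%), with a median log2 fold change of 0.069. The 5 were Ddit4, Nfkbia, Fkbp5 and the metallothionein genes Mt1 and Mt2. edgeR called 0, with 1 higher (4.96% of all genes) and 0 lower (1.1%) before adjustment at p under 0.05. DESeq2 called 1 (2.93% of all genes higher), Ddit4, an inhibitor of mTORC1 (log2 fold change 0.75 ± 0.16, edgeR adjusted p = 0.322). Fkbp5, which encodes a glucocorticoid receptor cochaperone and is strongly induced by the hormone, had 28.2 and 25.2 CPM versus 36.5 and 30.5 CPM (0.33 ± 0.17, edgeR adjusted p = 1.00). Nfkbia, the gene of the NF-kB inhibitor, had a log2 fold change of 0.46 ± 0.21.

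Of 11 genes that follow body temperature, 0 had both treated libraries above both controls (16.5% of all genes) and 3, Cirbp, Hsp90ab1 and Hspd1, had both below (13.1%), with a median of −0.077. Cirbp, a cold-inducible RNA-binding protein gene, had 43.7 and 48.5 CPM versus 42.5 and 39.2 CPM. Rbm3, the other cold-inducible gene of the list, was highest in treated replicate 1 (152 CPM versus 76.5 to 100.1 CPM). Hspa1a and Hspa1b, near-identical heat shock genes whose separate levels are uncertain, had log2 fold changes of −0.24 ± 0.22 and −0.36 ± 0.32. Of 11 immediate-early genes, 2 had both treated libraries above and 0 below (median 0.048), near the 16.5% of all genes with higher values, namely Egr2, which is also induced in activated T cells (0.951 and 1.79 CPM versus 3.70 and 2.63 CPM), and Btg2 (0.32 ± 0.17). Atf3 was highest in treated replicate 1, at 17.5 CPM versus 5.94 to 9.22 CPM, and Ier2 was lowest in treated replicate 2. edgeR and DESeq2 called 0 in the temperature and immediate-early lists. At an unadjusted edgeR p under 0.05 there were 0 and 1 genes, the 1 being higher (4.96% of all genes).

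The pattern of Arntl and of Dbp over the 4 libraries was compared with that of every other gene of at least 1 CPM, by the Euclidean distance between log2 CPM values centred on each gene's mean. Of the nearest genes, those among the 10 and those with provisional symbols are not named. Closest to Arntl were Necab1 (distance 0.055), Lypd6 (0.18), Sgpp2 (0.19), Hoxc5 (0.19) and Abcb1b (0.22). Necab1 had 1.46 and 1.35 CPM in controls and 0.667 and 0.765 CPM in treated thyroids. Of the clock genes, Npas2 lay at 0.19 from Arntl, with 0.026% of genes closer, and Cry1, Clock and Nfil3 at 0.55, 0.59 and 0.68 (1.19%, 1.77% and 3.65% closer). The distance includes the group difference on which these genes were chosen, so the shares restate that choice.

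Closest to Dbp were genes of immune cells: Cd74, the invariant chain of MHC class II (distance 0.14), the lymphocyte receptor gene Cd27 (0.18), H2-DMa, which encodes a chain of the class II peptide-loading factor (0.19), the B cell surface protein gene Cd72 (0.20) and the class II chain gene H2-Aa (0.22). Cd74 had 169 and 387 CPM in controls and 1844 and 1475 CPM in treated thyroids, the same order of libraries as Dbp. The other genes of the Dbp arm were farther from Dbp, at distances of 2.19 for Nr1d1, Nr1d2 and Per2 and 2.41 for Per3, with 5.36%, 5.40%, 5.36% and 7.48% of genes closer, shares that again include the difference used for the choice. Distances are over 4 libraries only, and many genes of this table share a difference between the groups.

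Immune cell markers had higher values in the treated libraries. All 17 T and NK cell markers had both treated libraries above both controls, against 16.5% of all genes, and their summed CPM was 28.7 and 59.8 in controls and 206 and 221 in treated thyroids. Of 10 macrophage markers 8 did so (194 and 251 against 839 and 791 CPM). After adjustment edgeR called 0 genes of either list, and before adjustment at p under 0.05 it had 15 T and NK cell and 8 macrophage markers, as many as DESeq2 called (4.96% and 2.93% of all genes). No marker of either list was at 0 in any library. The part of these cells in the clock values was not tested. Of 11 cartilage markers, 8 had both treated libraries below both controls, against 13.1% of all genes, and 1, Cnmd, had both above (282 and 312 against 174 and 279 CPM in sum). edgeR called 0 of the 11, with 5 lower before adjustment at p under 0.05 (1.1% of all genes). DESeq2 called 5 lower (0.327% of all genes), among them the proteoglycan gene Acan (56.3 and 75.1 CPM versus 7.35 and 10.6 CPM). The part of cartilage in the clock values was not tested. The summed CPM of 12 thyroid follicular markers overlapped between the groups (155800 and 150350 against 46138 and 167242). It overlapped for 12 skeletal muscle markers (37430 and 50640 against 66087 and 22433) and 9 adipocyte markers (995 and 820 against 520 and 1198). Of the genes of these lists, 0, 0 and 2 did not overlap, the 2 being lower in treated thyroids (13.1% of all genes). Squamous markers summed to 13123 and 3536 CPM in controls and 5846 and 110 CPM in treated thyroids. Parathyroid and C cell markers summed to 5311 and 2467 against 5327 and 3899 CPM. Of the 10 squamous and the 6 parathyroid and C cell markers, 2 in each list had both treated libraries below both controls (13.1% of all genes). In both lists 0 had both above (16.5%).

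**Figure D5:**
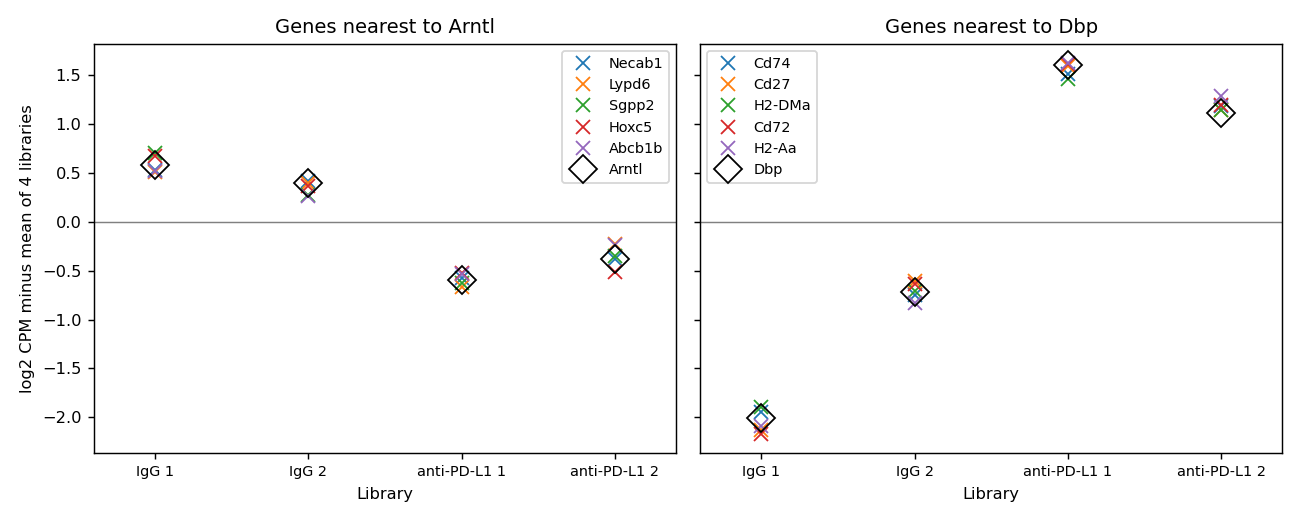
Deviation of log2 CPM from the mean of the 4 libraries (vertical axis) in each library (horizontal axis) for Arntl and Dbp (diamonds) and the 5 genes nearest to each (crosses). The crosses beside Dbp are immune cell genes, and for Cd74 the CPM values run from 169 in IgG 1 to 1844 in anti-PD-L1 1.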

How the data were processed

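The authors deposited 1 table of expected counts per gene symbol for 4 thyroid libraries, not normalized. BWA and mm10 are named, with no role, per the submitters' processing notes. The counting program, annotation and strand setting were not given in the sources used here. In 3328 genes a count ended in 0.5, and 13 blank cells were read as 0. Counts were rounded and tested with edgeR 4.0.16 in R 4.3.3 (filterByExpr, 16217 genes kept, TMM factors, robust two-sided quasi-likelihood test with group as the only term, Benjamini-Hochberg over all genes, threshold 0.05). Standard errors were derived from the fold change and its F statistic. Log2 CPM used a prior count of 2. Alternatives were other scalings and filters, DESeq2 1.42.0, a replicate block, leaving out each library in turn, and removal of tissue markers. At these totals 3 counts are 0.0377 to 0.0397 CPM, a floor for counting error only. The libraries of a group differed by far more than sampling noise (321 and 1056 times, as chi-square over its degrees of freedom). The steps were tested on simulated data.

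The 10 member genes and the lists were chosen with earlier results of these data known. A pair of listed genes is not reported here, and the counts and medians of their lists are without them. Named genes are the members, the other core clock genes, the 4 genes of smallest p in each further rhythm list, the 5 genes nearest to Arntl and to Dbp (mean of at least 1 CPM, no member, no provisional symbol), and Tg. Sphk2 and Thra are named for their overlaps. Xist, Ddx3y, Cebpd, Nr4a1, Tsc22d3, Errfi1, Pdk4, Angptl4, Csnk1a1, Wdr5, Nampt, Klf10, Mt1, Mt2, Hsp90ab1, Hspd1, Acan and Cnmd were chosen after their values were seen. Gene positions come from GENCODE M21 on GRCm38, the assembly also called mm10, and promoter sequences from RefSeq on GRCm38.p6.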

Additional observations from a re-analysis of the deposited data

How the results depend on the processing

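The direction of both arms was the same under every scaling, filter, test and left-out library tried. The genes were chosen for these directions, so nothing is read from that. The Arntl arm median ranged from −0.97 to −0.87, the Dbp arm median from 0.45 to 0.88 and the difference of the arm medians from −1.83 to −1.35 over the leave-one-out fits. Among the 10 genes the widest ranges were those of Dbp (2.08 to 3.39) and Clock (−0.97 to −0.15). DESeq2 called 475 genes higher and 53 lower where edgeR called 0, and it called 1 gene of the glucocorticoid list. Over the leave-one-out fits the median was −0.097 to 0.44 for the other core clock genes (−0.029 with the stricter filter, without Ciart), −0.065 to 0.075 for the coregulators, −0.23 to −0.014 for the temperature list and −0.27 to 0.43 for the immediate-early list. That of the kinase and ligase list was −0.040 with RLE factors and with DESeq2, −0.041 with upper-quartile factors, −0.0096 with plain library sizes, −0.045 with tissue markers left out and −0.054 to −0.0065 over the leave-one-out fits. That of the output list was 0.15 with upper-quartile factors and with tissue markers left out, 0.20 with plain library sizes and 0.048 to 0.16 over the leave-one-out fits, and that of the glucocorticoid list −0.025 to 0.20. With the replicate number as a block, 0 genes were called, the arm medians were −0.90 and 0.61, the output median 0.14 and the glucocorticoid median 0.20. The replicate numbers share no stated origin (correlation of same-numbered deviations 0.0998 over 2 pairs). Of the other genes named, none was past the edgeR threshold. Their log2 fold change crossed 0 with a library left out for Per1 (−0.55 to 1.31), Cry2 (−0.47 to 0.19), Rora (−0.28 to 0.0024), Rorb (−0.20 to 0.11), Hlf (−0.63 to 0.27), Gsk3b (−0.75 to 0.071), Prkaa2 (−0.54 to 0.039), Ppargc1a (−0.86 to 0.12), Cipc (−0.57 to 0.029), Rbm3 (−0.25 to 0.73), Atf3 (−0.32 to 1.19) and Ier2 (−0.57 to 0.043). The causes were not tested. With 1 library left in a group, that library is assumed to vary like the other group. Depth limits Ciart, under 1 CPM in 3 libraries.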
